A study of Mus musculus with 6 samples.

Results

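The 29 genes described here encode enzymes of cholesterol synthesis, the SREBP proteins that regulate these enzymes, and proteins that take up, export, convert, store or carry cholesterol. They were taken by gene symbol from a list of pathway genes, and all 29 were found among the 18228 genes of the count table. RNA was sequenced from hypothalamus tissue of 3 aged mice (22 months old) and 3 young mice (12 weeks old), a study that looked for genes associated with the vulnerability of this brain region in ageing mice with cognitive decline. The sequenced mice were a random 3 of the 5 per age that went through behavioural tests; no treatment or genetic alteration is recorded, with strain and sex not given in the sources used here.

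Brain cells make their own cholesterol, because lipoproteins of the blood hardly cross the blood-brain barrier. Acetyl-CoA is built up through mevalonate to isoprenoid units, these are joined to squalene, squalene is folded into lanosterol, and lanosterol is trimmed to cholesterol. When the membrane of the endoplasmic reticulum is low in sterol, SCAP carries the SREBP transcription factors to the Golgi, where they are cut and freed to switch on these enzymes; INSIG proteins hold SCAP back when sterol is plentiful. Oligodendrocytes put much cholesterol into myelin, astrocytes export it on lipoproteins, and neurons convert an excess to 24-hydroxycholesterol, which leaves the brain.

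The 6 libraries held 17208291 to 18884403 counted reads. All 12 hypothalamic neuron markers examined, among them Avp, Oxt and Pmch, were detected in the test. Their levels were not alike in both groups. In the edgeR test given below, 9 of the 12 (75%) had an unadjusted p under 0.05, against 26.2% of all genes tested. Avp was called higher and Hcrt lower in the aged mice, where 3.22% of all genes were called higher and 3.64% lower. Markers of cortex and thalamus were higher in the young libraries, at a summed 231.0 to 529.2 CPM (counts scaled to library size with TMM factors) against 166.4 to 175.3 CPM in the aged, with young replicate 2 the highest. The 4 Y-linked genes examined summed to 183.8 to 202.7 CPM in the aged and 1.38 to 1.88 CPM in the young libraries, so age and sex cannot be told apart in any comparison here.

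Of the cholesterol genes, Pmvk was higher in aged than in young hypothalamus, and no other passed the test. All 29 passed the filter on low counts and were tested together with all 14702 genes that passed it (edgeR quasi-likelihood test, Benjamini-Hochberg adjusted p under 0.05 over all genes tested). Of the 29, 1 was higher, 0 were lower and 28 did not pass; over all genes tested, 6.86% passed, 3.22% higher and 3.64% lower. At an unadjusted p under 0.05 there were 3 genes, Pmvk above and Cyp46a1 and Lrp1 below the young level, which is 10.3% of the 29 against 26.2% of all genes tested. DESeq2 and limma-voom, run as alternatives, also called Pmvk alone, where they called 8.91% and 6.35% of all genes tested. The log2 fold changes of aged over young had a median of -0.006, with 13 above and 16 below 0, and the median over all genes tested was -0.003. In 6 of the 29 genes (20.7%) every aged CPM value lay on the same side of every young value. That share is to be read against 31.7% of all genes tested.

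The test bounded most differences closely. The 95% interval of the log2 fold change lay within a 1.5-fold change in either direction for 28 of the 29 genes (96.6%), compared with 75.5% of all genes tested. Pmvk was the gene whose interval reached past 1.5-fold. The smallest count of any of these genes in any library was 278 reads, for Idi1. In whole tissue, fewer cells of a type and less RNA per cell cannot be told apart.

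**Figure D1:**
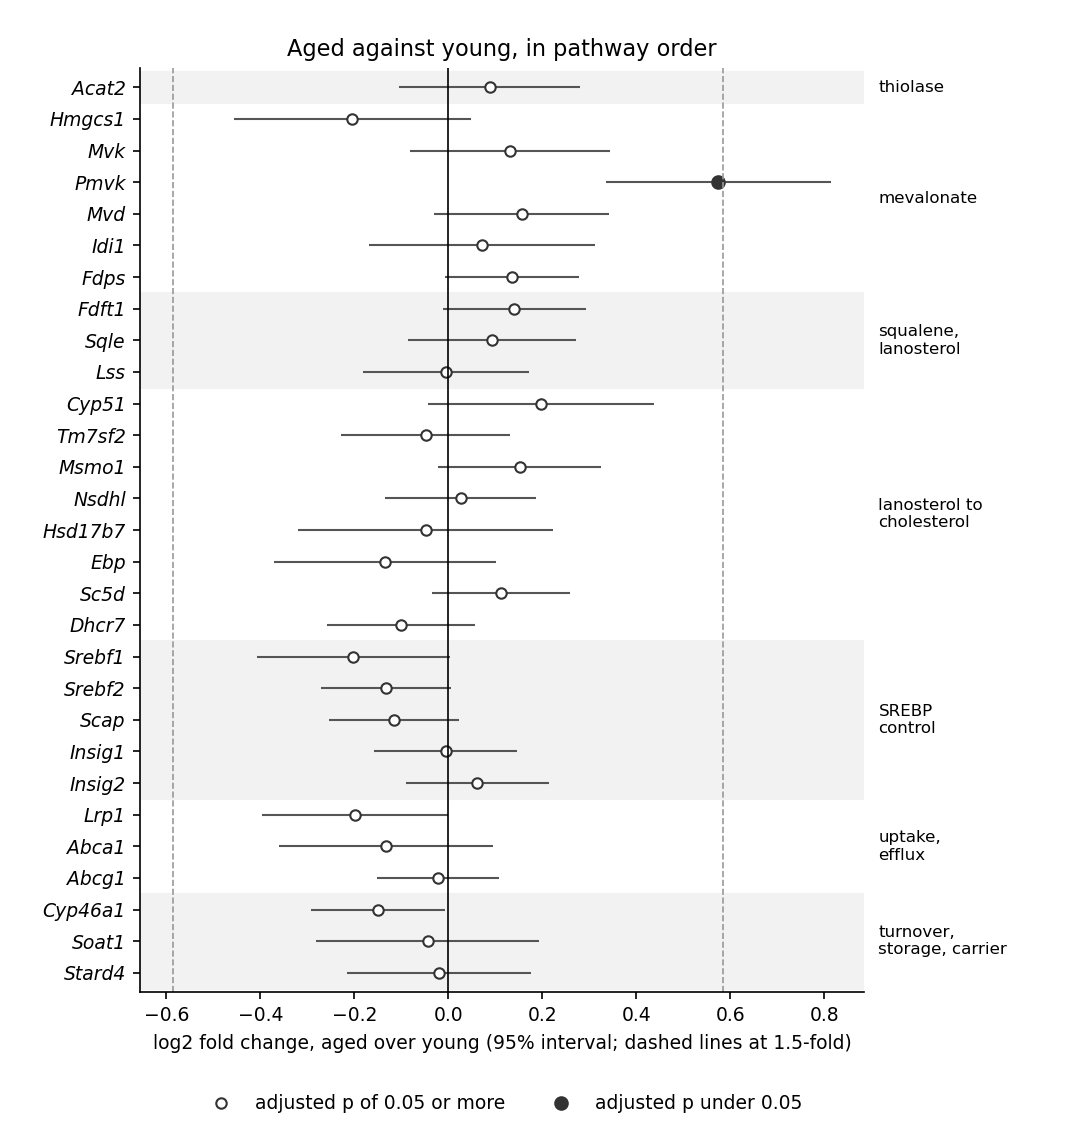
Log2 fold change of aged over young for the 29 cholesterol genes in pathway order, with 95% intervals from edgeR's test (3 aged and 3 young mice). The filled point, Pmvk, passed the adjusted threshold; the 28 open points did not, and their intervals lie between the dashed lines at 1.5-fold.

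Levels were compared between genes as FPKM, reads scaled to gene length and library total. Lrp1, an endocytic receptor for lipoproteins, had the highest mean over the 6 libraries at 72.4 FPKM, and Hmgcs1, the enzyme that makes HMG-CoA, followed at 70.7 FPKM. Cyp46a1, the neuronal cholesterol 24-hydroxylase, was the third at 62.6 FPKM. The ranges of these 3 genes over the libraries overlapped, while the lowest value of Cyp46a1 (58.9 FPKM) lay above the highest of Srebf2 (57.1 FPKM), the fourth.

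Among the synthesis enzymes, levels differed widely from step to step. Hmgcs1 at 70.7, Fdps at 42.4, Msmo1 at 39.9 and Sqle at 30.5 FPKM were the most abundant, and Lss at 9.20, Idi1 at 6.53 and Hsd17b7 at 3.38 FPKM were the least. Of the regulators, Srebf2 averaged 53.1, Insig1 44.3, Scap 30.95, Srebf1 23.8 and Insig2 7.40 FPKM. Hsd17b7 was the lowest of all 29, and its highest library (3.87 FPKM) lay below the lowest library of the next gene up, Soat1 (4.99 FPKM). The aged and young values of most genes lay among each other, as the plot of levels by library shows.

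**Figure D2:**
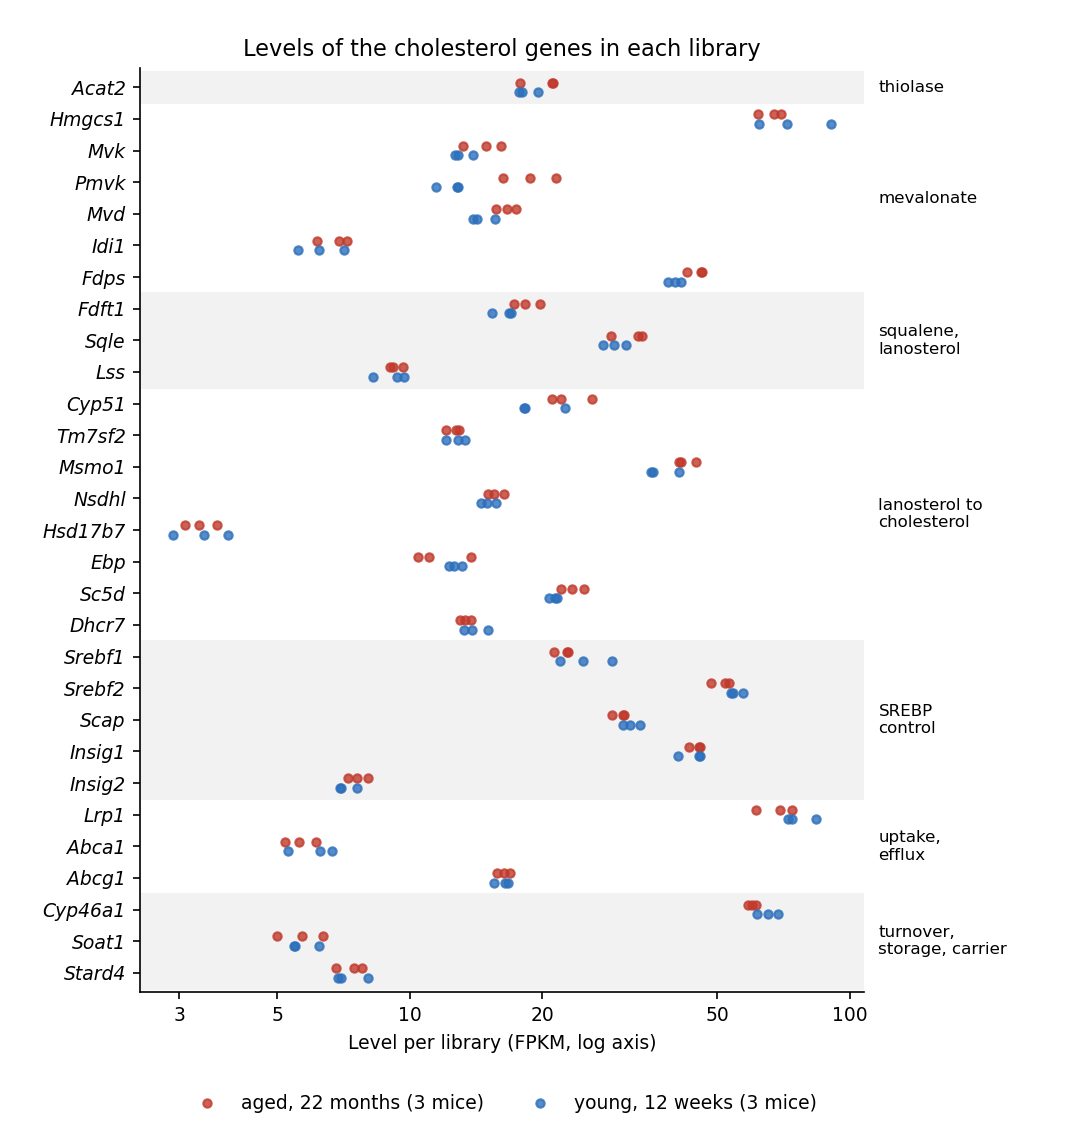
FPKM of each of the 29 genes in each library on a log axis, in pathway order (red, 3 aged mice; blue, 3 young mice). Lrp1, Hmgcs1 and Cyp46a1 lie highest and Hsd17b7 lowest, and red and blue points mix in most rows. They are widest apart for Pmvk and narrowly apart for Fdps, Fdft1, Mvd, Sc5d, Srebf2 and Cyp46a1.

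Pmvk encodes phosphomevalonate kinase, which adds the second phosphate to mevalonate. Its level was 63.5, 54.2 and 72.6 CPM in aged replicates 1, 2 and 3, and 44.2, 44.6 and 38.9 CPM in young replicates 1, 2 and 3. All 3 aged mice were above all 3 young mice, and the lowest aged value belonged to aged replicate 2. The group means were 63.4 ± 9.19 CPM in aged and 42.6 ± 3.20 CPM in young hypothalamus (SD, n = 3 each), a 1.49-fold difference. On the log2 scale this was 0.57 ± 0.11 (SE), with a 95% interval of 0.33 to 0.81 and an edgeR adjusted p of 0.0186. The call was lost when aged replicate 1, aged replicate 3, young replicate 1 or young replicate 3 was left out (edgeR adjusted p of 0.0605, 0.0649, 0.0518 and 0.0600), with log2 fold changes of 0.48 to 0.69 over all 6 omissions.

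The promoter of Pmvk was compared in sequence with those of the other cholesterol genes. Promoter windows of 250 bases before the gene start, from RefSeq (GRCm38.p6, a build older than the one used for the counts), were at hand for 24 of the 29 genes, 32 windows in all since some genes have several starts; Fdps, Fdft1, Sqle, Abcg1 and Stard4 had none. Both strands were searched for TCACCCCAC, the core of the sterol regulatory element that SREBP binds, for CCAAT, the box bound by NF-Y, which acts beside SREBP at sterol-regulated promoters, and for CACGTG, an E-box. The 3 motifs were counted separately, and overlaps between them were not removed. A gene was counted where any of its windows held the motif. The sterol element core was found for 1 of 24 genes (4.167%), Hmgcs1, and for 0.555% of all 27025 genes with a window. CCAAT was found for 20 of 24 genes (83.33%), against 37.49% of all, which was 65.62% of the 32 windows against 33.85% of all windows. CACGTG was found for 6 of 24 genes (25%), against 6.86% of all, or 18.75% of windows against 6.021%. A match is a description of letters and not of binding. Only exact matches were counted, so sites that vary from these strings or lie outside the windows were not seen.

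Printed are the window of Pmvk, the gene that passed the test, that of Hmgcs1, which holds the sterol element core, and that of Mvk, the kinase acting just before Pmvk, which holds the most CCAAT boxes. Each runs 5′ to 3′ on the plus strand up to the base before the gene start; capitals mark TCACCCCAC and CCAAT, the latter written ATTGG where it lies on the minus strand. The first 42 bases of the Mvk window lie in an exon of its neighbour Mmab and are left out.
Pmvk, chr3:89454291-89454540: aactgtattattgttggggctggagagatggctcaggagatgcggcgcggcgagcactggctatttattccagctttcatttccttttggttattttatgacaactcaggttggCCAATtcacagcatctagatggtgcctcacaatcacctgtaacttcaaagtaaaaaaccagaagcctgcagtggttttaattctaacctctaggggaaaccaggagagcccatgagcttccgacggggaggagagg
Hmgcs1, chr13:119690101-119690350: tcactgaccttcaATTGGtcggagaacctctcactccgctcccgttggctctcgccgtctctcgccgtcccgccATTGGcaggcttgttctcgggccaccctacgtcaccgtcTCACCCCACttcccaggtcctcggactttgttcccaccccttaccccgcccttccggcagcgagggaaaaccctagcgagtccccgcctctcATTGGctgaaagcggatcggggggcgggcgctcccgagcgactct
Mvk, chr5:114444061-114444268: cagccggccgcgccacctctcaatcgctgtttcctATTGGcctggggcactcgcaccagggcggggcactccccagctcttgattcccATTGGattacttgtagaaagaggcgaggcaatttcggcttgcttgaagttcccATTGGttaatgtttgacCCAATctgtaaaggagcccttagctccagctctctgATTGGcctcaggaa
The Pmvk window printed is that of the first of 2 RefSeq starts and holds 1 CCAAT box, whose first base lies 136 bases before that start; the window of the other start, 5030 bases downstream, holds 0. The Hmgcs1 window holds 3 CCAAT boxes, and its sterol element core begins 137 bases before the start. The Mvk window holds 5 CCAAT boxes, the nearest 14 bases before the start.

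Of the other enzymes up to farnesyl diphosphate, none passed the test. Hmgcs1, which joins acetoacetyl-CoA and acetyl-CoA, measured 249.9, 265.8 and 280.1 CPM in the aged and 255.8, 296.0 and 364.7 CPM in the young mice. The groups overlapped, and young replicate 3 was the highest. The log2 fold change of Hmgcs1 was -0.20 ± 0.11 (SE; edgeR adjusted p = 0.281), and without young replicate 3 it was -0.05. Hmgcs1 and Pmvk, at different steps of the mevalonate branch, thus had estimates of opposite sign, of which that of Pmvk alone passed.

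Fdps, the synthase of farnesyl diphosphate, measured 62.1, 65.7 and 66.9 CPM in the aged and 57.4, 61.6 and 58.2 CPM in the young mice. The groups did not overlap, though the lowest aged and the highest young value were close together. The log2 fold change of Fdps was 0.14 ± 0.06 (SE; edgeR adjusted p = 0.209). Mvk, mevalonate kinase, had a log2 fold change of 0.13 and Mvd, the decarboxylase that makes isopentenyl diphosphate, one of 0.16. Idi1, the isomerase of isopentenyl diphosphate, stood at 0.07, and Acat2, the cytosolic thiolase that makes acetoacetyl-CoA, at 0.09. The edgeR adjusted p of these 4 genes ran from 0.264 (Mvd) to 0.713 (Idi1). Their groups overlapped in CPM in each, though those of Mvd were just apart in FPKM.

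**Figure D3:**
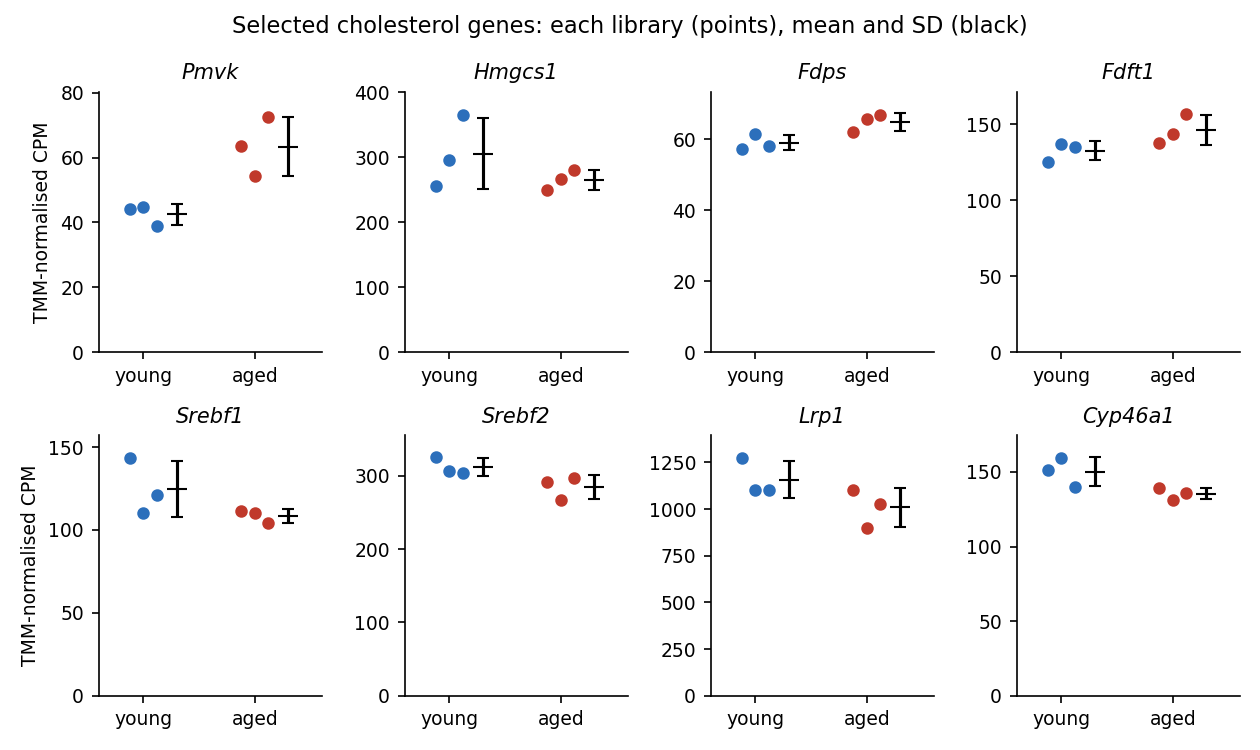
CPM of 8 cholesterol genes in each library (points, axes starting at 0), with group mean and SD in black (n = 3 young, blue, and 3 aged, red). Pmvk has the widest gap between groups; the groups of Hmgcs1, Srebf1 and Lrp1 overlap, and those of Fdps, Fdft1, Srebf2 and Cyp46a1 are apart by less than the Pmvk groups.

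The enzymes that form squalene and lanosterol showed no called difference. Fdft1, squalene synthase, measured 137.8, 143.5 and 156.8 CPM in the aged and 125.1, 137.1 and 135.2 CPM in the young mice. The groups of Fdft1 did not overlap, but the gap was small beside the spread within them. Its log2 fold change was 0.14 ± 0.07 (SE; edgeR adjusted p = 0.220). Sqle, squalene epoxidase, had a log2 fold change of 0.09. Lss, lanosterol synthase, was at -0.01, and this sign changed in 10 of 21 alternatives.

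From lanosterol to cholesterol, 8 enzymes were measured, and 0 passed by edgeR, DESeq2 or limma-voom or at an unadjusted p under 0.05. In CPM the groups were apart in none of the 8, against 31.7% of all genes tested. In FPKM those of Sc5d were apart, with aged values from 22.0 and young values up to 21.6. Estimates were above 0 for Cyp51, the lanosterol 14-alpha-demethylase (log2 fold change 0.20), Msmo1, the C4-methyl oxidase (0.15), Sc5d, the sterol C5-desaturase (0.11), and Nsdhl, the C4-decarboxylating dehydrogenase (0.03). They were below 0 for Ebp, the sterol isomerase (-0.14), Dhcr7, the 7-dehydrocholesterol reductase (-0.10), Tm7sf2, a sterol C14-reductase (-0.05), and Hsd17b7, the 3-ketosteroid reductase (-0.05). Msmo1 measured 94.8, 94.6 and 103.6 CPM in the aged and 84.5, 97.1 and 82.1 CPM in the young mice. Young replicate 2 overlapped the aged values of Msmo1, and its edgeR adjusted p was 0.246. Nsdhl and Ebp are X-linked, and sex may touch their values directly; the signs of Nsdhl and Hsd17b7 each changed in 2 alternatives.

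Over the 18 enzymes from Acat2 to Dhcr7, the median log2 fold change was 0.09, with 12 estimates above and 6 below 0, while the median over all genes tested was -0.003. The groups were apart in CPM in 3 of the 18 (16.7%), Pmvk, Fdps and Fdft1, against 31.7% of all genes. Added up per library, the enzymes' levels were 375.4, 389.8 and 414.7 FPKM in the aged and 355.2, 379.8 and 377.7 FPKM in the young mice. Aged replicate 1 lay below young replicates 2 and 3, so the sums overlapped. The enzymes' median gene length was 2.81 kb, shorter than the 3.69 kb of all genes tested, and with the trend of counts on gene length removed from each library their median log2 fold change was 0.05.

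Of the 5 genes of SREBP control, 0 passed by edgeR, DESeq2 or limma-voom or at an unadjusted p under 0.05, and 4 of the 5 estimates were below 0. Srebf2 encodes the SREBP that mainly drives cholesterol genes. It measured 291.3, 266.6 and 296.5 CPM in the aged and 325.9, 307.1 and 303.6 CPM in the young mice. The groups were apart, with aged replicate 2 the lowest of all. For Srebf2 the log2 fold change was -0.13 ± 0.06 (SE; edgeR adjusted p = 0.204).

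Srebf1, whose products mainly drive fatty acid genes, measured 111.4, 110.1 and 103.9 CPM in the aged and 143.4, 110.0 and 121.2 CPM in the young mice. Young replicate 1 was well above the rest and young replicate 2 lay within the aged range. Its log2 fold change was -0.20 ± 0.09 (SE; edgeR adjusted p = 0.196). Scap, the escort of the SREBPs, measured 139.6 ± 6.30 CPM in aged and 151.3 ± 6.98 CPM in young hypothalamus (SD, n = 3 each), with groups apart and a log2 fold change of -0.12 (edgeR adjusted p = 0.262).

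Insig1 and Insig2 encode the proteins that retain SCAP, and Insig1 is itself induced by SREBP. Insig1 measured 117.2 ± 3.20 CPM in aged and 117.7 ± 8.94 CPM in young hypothalamus (SD, n = 3 each), a log2 fold change of -0.01 with a 95% interval of -0.16 to 0.15, whose sign changed in 9 alternatives. Insig2 had a log2 fold change of 0.06. The median of the 5 regulators was -0.12, and it stayed between -0.13 and -0.07 in every alternative run, none of which called any of the 5.

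None of the 6 genes of uptake, efflux, turnover, storage and carriage passed, though all 6 estimates were below 0 in the edgeR fit with TMM scaling; the signs of Abcg1, Soat1 and Stard4 changed in 5, 2 and 6 alternatives, other scalings among them for Abcg1 and Stard4. Lrp1 measured 1103, 895.7 and 1029 CPM in the aged and 1272, 1102 and 1100 CPM in the young mice. Aged replicate 1 reached the lower young values, and aged replicate 2 was the lowest. The log2 fold change of Lrp1 was -0.20 ± 0.09 (SE; edgeR adjusted p = 0.189). It was -0.11 without aged replicate 2 and -0.08 with the trend on gene length removed, Lrp1 being the longest of the 29 at 14.9 kb.

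Abca1 and Abcg1 export cholesterol to lipoprotein particles. Abca1 had a log2 fold change of -0.13 (edgeR adjusted p = 0.443) and Abcg1 one of -0.02 (edgeR adjusted p = 0.846), and the groups overlapped in both. Cyp46a1, which turns cholesterol into 24-hydroxycholesterol in neurons, measured 139.1, 131.5 and 135.9 CPM in the aged and 151.3, 159.6 and 140.0 CPM in the young mice. The groups were apart, with young replicate 3 just above the highest aged value. For Cyp46a1 the log2 fold change was -0.15 ± 0.06 (SE), with a 95% interval of -0.29 to -0.01 and an edgeR adjusted p of 0.174. It missed the adjusted threshold in all 21 alternatives. Soat1, which esterifies cholesterol for storage, and Stard4, a cytosolic sterol carrier, stood at log2 fold changes of -0.04 and -0.02.

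The median of these 6 genes was -0.09, and -0.03 with the trend on gene length removed; their median length was 5.63 kb. Added up, their levels were 169.6, 154.9 and 165.2 FPKM in the aged and 184.2, 177.6 and 169.9 FPKM in the young mice. The highest aged sum, in replicate 1, lay just under the lowest young sum, in replicate 3. Summed CPM of the same genes overlapped, at 1460 in aged replicate 1 and 1456 in young replicate 3.

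Further genes of the pathway were taken from 5 lists with 76 genes, of which 72 were tested. Erlin1 was higher and Clu and Lcat were lower in aged hypothalamus, and 69 did not pass, where 6.86% of all genes tested passed. An unadjusted p under 0.05 was found for 19 (26.4%), against 26.2% of all genes tested. Among 16 other genes of SREBP pathway control, 1 was higher, against 3.22% of all genes tested. Erlin1, part of an endoplasmic reticulum complex that hands proteins over for degradation and binds cholesterol, measured 33.2, 25.6 and 33.1 CPM in the aged and 20.5, 19.4 and 20.4 CPM in the young mice. All aged values were higher, with aged replicate 2 nearest to the young. For Erlin1 the log2 fold change was 0.61 ± 0.11 (SE; edgeR adjusted p = 0.0160), and the call was lost without aged replicate 1, aged replicate 3 or young replicate 1 (edgeR adjusted p of 0.0614, 0.0723 and 0.0518).

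The next genes of that list by adjusted p did not pass. Mylip, a ubiquitin ligase for lipoprotein receptors that is induced by sterol-sensing liver X receptors, had a log2 fold change of -0.38 (edgeR adjusted p = 0.0527). Pgrmc1, a haem protein that binds sterol-synthesising cytochrome P450 enzymes, stood at 0.17 (edgeR adjusted p = 0.0790). Paqr3, a Golgi anchor of Scap, stood at -0.21 (edgeR adjusted p = 0.0976). The groups of all 3 were apart, as were those of 9 of the list's 16 genes (56.25%) and of 31.7% of all genes tested.

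Of the 14 fatty acid genes regulated by SREBP, 0 passed in edgeR. An unadjusted p under 0.05 was found for 7 (50%), against 26.2% of all genes tested. Their median log2 fold change was -0.07, with 10 estimates below 0. DESeq2 called 5 of them, Elovl5 higher and Scd2, Fads1, Fads2 and Gpam lower, where it called 8.91% of all genes tested. Gpam, which starts glycerolipid synthesis, had a log2 fold change of -0.34 (edgeR adjusted p = 0.0533). The desaturases Fads2 and Fads1 stood at -0.36 (edgeR adjusted p = 0.0616) and -0.30 (edgeR adjusted p = 0.0682), and the elongase Elovl5 at 0.34 (edgeR adjusted p = 0.0658). Added up, the 14 genes measured 5249, 4356 and 5364 CPM in the aged and 6128, 5582 and 5510 CPM in the young mice, with aged replicate 2 the lowest. Scd2 alone averaged 2420 CPM of this sum in the aged and 2919 CPM in the young mice. Whether the fatty acid genes differed from the cholesterol enzymes was not tested.

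The isoprenoid branches leave the pathway at farnesyl diphosphate toward protein prenylation, dolichol and ubiquinone. Of 9 such genes tested, 0 passed in edgeR, DESeq2 or limma-voom and 0 had an unadjusted p under 0.05; the smallest adjusted p was that of Pggt1b, a subunit of a protein prenyltransferase (log2 fold change -0.26, edgeR adjusted p = 0.226). Among 11 other sterol enzymes and binders tested, 0 passed in edgeR, DESeq2 or limma-voom, and 0 had an unadjusted p under 0.05. The oxysterol enzyme Cyp27a1 there had a log2 fold change of 0.26 (edgeR adjusted p = 0.270), and Erg28, a scaffold of the C4-demethylation enzymes, one of -0.12 (edgeR adjusted p = 0.280).

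Among 22 other genes of sterol transport, 2 were lower and 0 higher, where 3.64% of all genes tested were lower and 3.22% higher. Clu, clusterin, an apolipoprotein that astrocytes secrete, measured 823.7, 763.0 and 842.8 CPM in the aged and 979.3, 947.2 and 975.1 CPM in the young mice. All aged values were lower. The log2 fold change of Clu was -0.26 ± 0.06 (SE; edgeR adjusted p = 0.0320). Lcat, which esterifies cholesterol on lipoprotein particles, measured 15.6, 12.6 and 14.4 CPM in the aged and 19.05, 20.3 and 18.2 CPM in the young mice. All aged values of Lcat were lower as well. Its log2 fold change was -0.43 ± 0.10 (SE; edgeR adjusted p = 0.0343). Leaving out a single library ended the Lcat call in 6 of 6 cases (edgeR adjusted p of 0.0504 to 0.119) and the Clu call in all but the omission of aged replicate 2 (0.0570 to 0.106 in the other 5). In limma-trend on log2 FPKM, Clu also missed the threshold, with limma adjusted p of 0.0647 and 0.0583 at pseudocounts of 1 and 0.1.

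**Figure D4:**
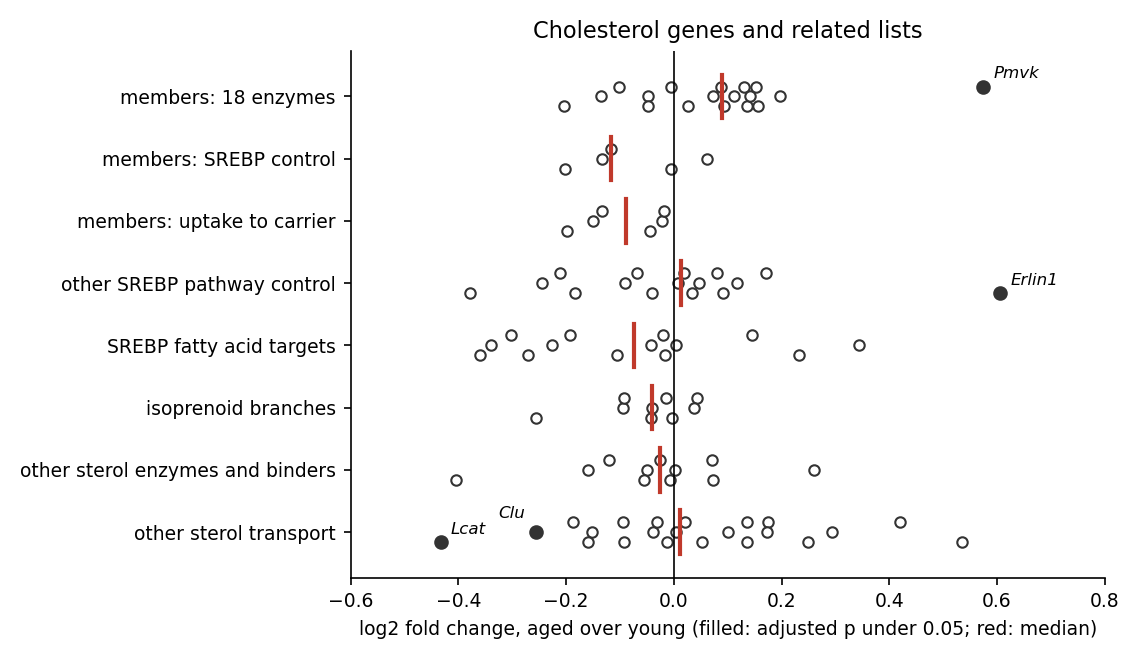
Log2 fold change of aged over young for the cholesterol genes in 3 groups and for 5 lists of related genes, 1 point per gene, with list medians as red bars. The filled points Pmvk, Erlin1, Clu and Lcat passed edgeR's adjusted threshold; the fatty acid genes spread more widely around 0 than the isoprenoid genes.

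Marker levels of cell types that make or use cholesterol were added up per library. The 8 astrocyte markers summed to 3807, 2889 and 3887 CPM in the aged and 4353, 4450 and 4228 CPM in the young mice. Of the 8, 2 were lower (Aqp4 and Slc1a2, edgeR adjusted p of 0.0102 and 0.0286). Aged replicate 2, the lowest, was also the lowest library in Lrp1, Srebf2, Scap, Dhcr7, Abca1, Cyp46a1 and Soat1. The same held for Clu, Lcat and the fatty acid sum. Its neuronal marker sum, 4878 CPM, was the highest of the aged. The 8 markers of oligodendrocyte precursors and differentiating oligodendrocytes summed to 470.6 to 507.0 CPM in the aged and 530.8 to 639.3 CPM in the young mice. Of the 8, 2 were lower. The estimates of 7 were below 0 and that of 1, Bcas1, was above. Bcas1 averaged 221.6 CPM in the aged and 214.1 CPM in the young mice, the largest part of both sums. The 9 markers of myelinating oligodendrocytes overlapped, at 7009 to 7288 CPM in the aged and 6352 to 8081 CPM in the young mice, with 1 of 9 lower. Neuronal markers summed to 4605 to 4878 and 4698 to 5280 CPM, with 0 of 8 called in edgeR and 0 of 8 at an unadjusted p under 0.05, and microglial markers to 449.0 to 494.3 and 375.1 to 389.7 CPM, with 3 of 8 higher and 1 lower. Over all genes tested, edgeR called 3.22% higher and 3.64% lower. The part of these markers in the results on the cholesterol genes was not tested.

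Some counts may be affected by exons that overlap those of another gene. By a GRCm38 annotation, exons of Fdps and Tm7sf2 overlap those of Gm43738 and Vps51 on the same strand. The overlaps cover 26.7% and 12.1% of their exon bases over all annotated transcripts. Exons of Srebf1 overlap Mir6922 over 1.17% of such bases. Exons of Fdft1, Scap, Hmgcs1, Idi1, Cyp51, Lss and Srebf1 overlap a gene on the opposite strand over 1.93% to 18.3%, the most in Fdft1 with Ctsb. The strand setting of the counting is not given in the sources used here, so values of these 9 genes are uncertain. The percentages do not measure that uncertainty, since the gene models counted may differ and the reads in the overlaps were not examined. Acat2 has a near-identical copy, Acat3, with which it may share reads. Pmvk had no such overlap.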

How the data were processed

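RNA from hypothalamus of 3 aged and 3 young mice was extracted with the mirVana kit and made into TruSeq Stranded mRNA libraries, per the labels' protocols. The authors deposited whole-number read counts per gene, not normalized, and FPKM values of the same genes; FPKM equalled the count over length and library total in 18228 genes (relative tolerance 1e-06). The submitters' processing notes name GRCm39 as build and, without versions or order, HISAT2, HTSeq, Cufflinks, Trimmomatic and DESeq; annotation release, strand setting and treatment of multiply matching reads were not given in the sources used here.

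Aged and young counts were compared by the quasi-likelihood test of edgeR 4.0.16 (R 4.3.3), without covariates, after filterByExpr (minimum count 10, minimum total count 15) and TMM scaling. The 14702 genes tested held 99.9% of counts, and the biological coefficient of variation was 8.52%. Adjusted p is Benjamini-Hochberg over all genes tested. SE and 95% intervals were derived from the test statistic. Each library came from a separate mouse, per the labels; replicates differed by more than sampling noise, with chi-square values of 4.04 to 12.1 per degree of freedom. Alternatives were other scalings, filters and thresholds, DESeq2 1.42.0, limma 3.58.1 (voom, and trend on log2 FPKM with pseudocounts of 1 and 0.1), robust estimation, the replicate number as a block, removal of the loess trend on gene length, omission of X- and Y-linked genes, and omission of each library, 21 in all. The test was checked on simulated data.

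The 29 genes and the lists beside them were chosen with earlier results of these data known. By rule, the text gives library values for called genes and up to 8 more with the smallest adjusted p or highest FPKM of their step, and names up to 4 genes per related list by adjusted p; Cyp51 and other single values were added to account for every gene. Chromosomes and exon overlaps came from a GRCm38 annotation, promoter windows from RefSeq (GRCm38.p6). Of the 76 related genes, Faxdc2 and Idi2 were not analysed here, and Ch25h and Soat2 did not pass the filter.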

Additional observations from a re-analysis of the deposited data

How the results depend on the processing

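Pmvk was called higher in 16 of 21 alternatives, and no other cholesterol gene was called in any (20 alternatives for the X-linked Nsdhl and Ebp). The calls of Pmvk were 0 at an adjusted p under 0.01 and 0 to 1 when single libraries were left out. The medians of the enzymes (0.05 to 0.14), of SREBP control (-0.13 to -0.07) and of the 6 genes of uptake to carriage (-0.13 to -0.03) kept their sign in every alternative. Over all genes, calls numbered 90 higher and 54 lower at an adjusted p under 0.01, and 1017 and 1170 under 0.1; limma-trend called 270 lower with a pseudocount of 1 and 266 with 0.1, and removal of the length trend left 356 lower. Leaving out single libraries gave 95 to 901 higher and 55 to 732 lower, the most higher without aged replicate 2. Of the related genes, 2 were higher with total counts alone, with DESeq2, with limma-trend at a pseudocount of 0.1 and with the replicate block; 6 were lower with DESeq2 and with the replicate block, 4 with robust estimation, and 1 with limma-trend at either pseudocount. They were 0 higher and 0 lower under 0.01, 3 higher and 7 lower under 0.1, and 0 to 3 higher and 0 to 3 lower without single libraries. Same-numbered libraries showed residual correlations of 0.10, 0.04 and -0.14, and 1 of 3 aged libraries correlated best with its own number. These values showed no pairing of mice by number, but 3 libraries per group cannot exclude one. With the replicate block, Pmvk stayed called (log2 fold change 0.57). The causes of these shifts were not tested. Depth set little limit here, the smallest count of the 29 genes being 278.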
